A study of Mus musculus with 3 samples.

Results

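The genes described here are 7 secreted factors that recruit, mobilize or sustain neutrophils and other myeloid cells. They are the chemokines Cxcl1, Cxcl2, Cxcl3 and Cxcl5 and the colony-stimulating factors Csf1, Csf2 and Csf3. Members were taken by gene symbol from the annotation of the array, on which each had 1 probe set of its own and none shared a probe set with another gene. They make up 7 of the 19938 genes and 7 of the 35556 probe sets measured. The members were selected on their log2 values in these same 3 columns, among them the differences of Csf3, Cxcl5 and Cxcl1 between Hi and Med, so the differences are given as a description and support nothing by themselves.

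Levels were measured by Affymetrix array in CT26, a mouse colon carcinoma line of BALB/c origin, in 3 groups that form a graded series. The miR-Ctrl cells (Ctrl) carried a vector with a control microRNA, the miR-17~92Med cells (Med) expressed medium levels of the miR-17~92 cluster, and the miR-17~92Hi cells (Hi) expressed high levels of it. Every group, Ctrl included, had been stably transfected with a PIG vector, selected in puromycin, sorted for GFP and grown up from single cells by dilution. The design names 3 subclones per group, but each group has 1 value column, and no source used here tells whether it holds a clone, a pool or a mean. With 1 sample per group, none of the differences described has an error estimate or a test, and a clone's own character cannot be told apart from the effect of the vector it carries. The cells grew in culture with serum and no added leukocytes are described in the labels.

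ELR CXC chemokines carry a glutamate-leucine-arginine motif before their first cysteines and attract neutrophils through the receptor Cxcr2. In epithelial and stromal cells their genes are switched on by NF-kB after IL-1, TNF, IL-17 or Toll-like receptor signals, and their mRNAs are short-lived. Csf3 (G-CSF) drives the making and release of neutrophils in the bone marrow, Csf2 (GM-CSF) acts on granulocytes, macrophages and dendritic cells, and Csf1 (M-CSF) keeps macrophages alive through Csf1r. In tumours such factors are known for drawing neutrophils and suppressive myeloid cells into the tissue.

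The cluster that was raised in Med and Hi encodes 6 main mature microRNAs, shown here because they are what separates the groups by design. They are printed as RefSeq gives them for mouse build GRCm38.p6, where they lie on the plus strand of chromosome 14, with the seed (bases 2 to 8) in capitals. There are 4 seeds among them, since miR-17 shares one with miR-20a and miR-19a shares one with miR-19b. No search for their sites in the members' transcripts was made.
mmu-miR-17-5p: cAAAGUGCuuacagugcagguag
mmu-miR-20a-5p: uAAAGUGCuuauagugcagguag
mmu-miR-18a-5p: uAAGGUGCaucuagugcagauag
mmu-miR-19a-3p: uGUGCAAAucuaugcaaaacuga
mmu-miR-19b-3p: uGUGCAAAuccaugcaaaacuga
mmu-miR-92a-3p: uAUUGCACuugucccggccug

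Promoter windows from RefSeq (GRCm38.p6) were matched for 5 of the 7 members, and those for Cxcl5 and Csf3 are not used here. The 160 bases before the start of Cxcl1, Cxcl2 and Cxcl3 are shown because these neighbouring chemokine genes had unlike levels. Capitals mark the longest run of bases that all 3 hold in the 250 bases before their starts, found by comparing the windows. The stretches, all on the plus strand, are chr5:90891085-90891244 for Cxcl1, chr5:90903739-90903898 for Cxcl2 and chr5:90785941-90786100 for Cxcl3.
Cxcl1: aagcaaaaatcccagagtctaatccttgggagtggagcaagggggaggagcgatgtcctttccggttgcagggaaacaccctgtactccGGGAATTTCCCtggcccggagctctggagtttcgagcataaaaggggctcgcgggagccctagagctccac
Cxcl2: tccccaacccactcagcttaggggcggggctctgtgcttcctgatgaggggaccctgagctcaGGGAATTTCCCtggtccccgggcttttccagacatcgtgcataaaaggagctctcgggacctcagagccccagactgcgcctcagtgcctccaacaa
Cxcl3: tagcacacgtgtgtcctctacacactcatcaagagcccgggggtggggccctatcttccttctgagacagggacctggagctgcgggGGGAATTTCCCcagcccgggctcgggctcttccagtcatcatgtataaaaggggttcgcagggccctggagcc

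The shared run GGGAATTTCCC is 11 bases long and has the form of an NF-kB site. It begins 71 bases before the start of Cxcl1, 97 before that of Cxcl2 and 73 before that of Cxcl3. Of all 32851 promoter windows of 300 bases, 14 (0.0426%) hold it on either strand, and the Csf1 and Csf2 windows do not. All 3 chemokine windows also hold ATAAAAG, which resembles a TATA box and is found on either strand in 5.42% of windows. It begins 34 bases before the start of Cxcl1, 57 before that of Cxcl2 and 29 before that of Cxcl3. Over aligned columns, the 160-base stretches of Cxcl1 and Cxcl3 were 58.7% identical, those of Cxcl1 and Cxcl2 54.8%, and those of Cxcl2 and Cxcl3 54.5%. Pairs that include Csf1 or Csf2 lay between 41.1% and 48.0%. Letter matches describe the windows and are not evidence of binding.

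The Ctrl column stood apart from the other columns, which bears on every difference from it. Its correlation across probe sets was r = 0.787 to Med and r = 0.795 to Hi, whereas Med and Hi correlated at r = 0.992 (probe sets are not independent replicates). Background was judged from 1194 olfactory and vomeronasal receptor genes, not known to be active in such cells. Their 95th percentile was 6.87 in Ctrl cells, 6.18 in Med cells and 6.20 in Hi cells on the log2 scale. A level under it is called within the receptor range below. The largest difference of any receptor gene was 0.66 between Hi and Med and 1.80 between Hi and Ctrl. Med and Hi also held values equal to every deposited decimal in 15551 probe sets (43.7%). The mitochondrially encoded mRNAs COX2 and ND3, abundant in most cells, measured between 12.21 and 13.31 in Hi, against 5.07 to 6.00 in Ctrl, and the part of this gap in the members' differences from Ctrl was not tested. The array did not check the labels, since of 6 genes for the cluster's host transcript and precursors, which do not report mature microRNAs, 0 were 2-fold higher and 2 (Mir18 and Mir19a) 2-fold lower in Hi than in the Ctrl column, and none differed by more than 0.04 between Hi and Med.

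The 7 members fell into 2 kinds. Cxcl1, Cxcl5, Csf1 and Csf3 lay above the receptor range in every column, and each was at least 2-fold higher in Hi than in Ctrl. Cxcl2, Cxcl3 and Csf2 lay within the receptor range in every column. The 4 genes of the first kind also passed the expression filter (mean over the columns of at least 7.13, the median of all genes), and the other 3 did not. Because a high Hi or Med value helps a gene past that filter, counts below are over all 7 members.

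**Figure D1:**
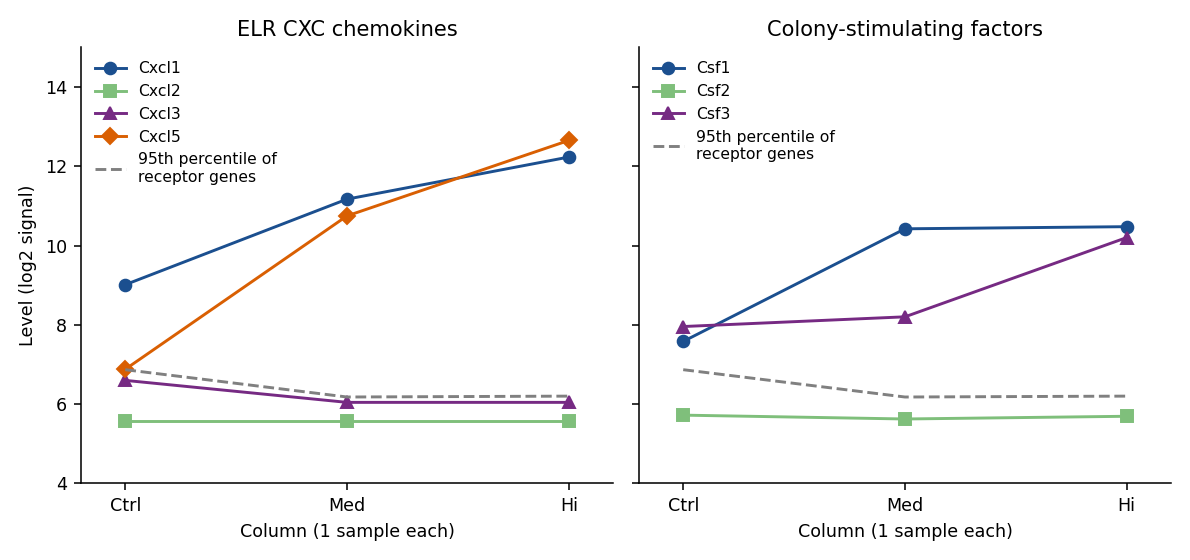
Level of each member (log2 signal, vertical axis) in the Ctrl, Med and Hi columns (horizontal axis, 1 sample each), with chemokines on the left, colony-stimulating factors on the right and the 95th percentile of receptor genes as a dashed line. Cxcl5 runs from 6.88 in Ctrl to 12.65 in Hi, while Cxcl2, Cxcl3 and Csf2 stay under the dashed line.

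Cxcl5 (also known as LIX, a neutrophil attractant made chiefly by epithelial and stromal cells) had the widest spread of the members. Its level was 6.88 in Ctrl cells, 10.75 in Med cells and 12.65 in Hi cells. The Ctrl value lay at the edge of the receptor range (6.87), so the size of the differences from Ctrl is not well fixed. Hi was 1.90 above Med on the log2 scale, a 3.74-fold difference in signal, and 18 of the 19938 genes had a larger difference in that direction. Against Ctrl, Hi was higher by 5.77, exceeded by 15 genes, and Med by 3.87, exceeded by 201 genes.

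Cxcl1 (KC, the most widely used mouse neutrophil attractant) was also graded across the series. It stood at 9.01 in Ctrl cells, 11.17 in Med cells and 12.23 in Hi cells. The Ctrl level was clear of the receptor range, unlike that of Cxcl5. Hi exceeded Med by 1.06, or 2.09-fold, just past the 2-fold mark, and 68 genes had a larger difference. The difference from Ctrl was 3.22 for Hi and 2.16 for Med. Under cyclic loess scaling Med was above Ctrl by 0.65, which is under 2-fold.

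Cxcl2 (MIP-2) and Cxcl3 (Dcip1), which act on the same receptor as Cxcl1, showed no such gradient. Cxcl2 was at 5.57 in all 3 columns, with identical deposited values, as were 2815 probe sets (7.92%). Cxcl3 was at 6.60 in Ctrl cells, 6.04 in Med cells and 6.04 in Hi cells. Its value was lower by 0.55 in Hi and in Med than in Ctrl, under 2-fold as deposited. With columns centred on the genes past the filter, it was lower than Ctrl by 2-fold (-1.09 in Hi and -1.15 in Med), and with cyclic loess the sign turned (0.084 in Hi and 0.10 in Med). Levels in this range may be background, and a change of a transcript below it could not be seen on this array.

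Among the colony-stimulating factors, Csf3 was high in Hi alone. It stood at 7.96 in Ctrl cells, 8.20 in Med cells and 10.20 in Hi cells. Hi was above Med by 2.0 on the log2 scale, 4.0-fold, and 15 genes had a larger difference. Hi was above Ctrl by 2.25 and Med by 0.25. The small difference between Med and Ctrl had no steady direction, being 0.55 with columns centred on all genes but -0.15 with quantile normalization, -0.34 with cyclic loess and -0.35 with columns centred on the genes past the filter.

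Csf1 had the opposite shape, with its whole difference already present in Med. Its levels were 7.58 in Ctrl cells, 10.42 in Med cells and 10.48 in Hi cells. Med was above Ctrl by 2.84 (7.17-fold) and Hi by 2.90 (7.44-fold), while Hi and Med lay 0.05 apart. Csf2 stood at 5.72 in Ctrl cells, 5.62 in Med cells and 5.69 in Hi cells, within the receptor range throughout, and no pair of columns differed by more than 0.10 in the deposited values.

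The 4 members above background thus reached Med at different points of the way from Ctrl to Hi. On the log2 scale, Med had covered 10.9% of the difference between Hi and Ctrl for Csf3, 67.0% for Cxcl1, 67.0% for Cxcl5 and 98.1% for Csf1. Over the scalings tried the range was -20.6% to 21.6% for Csf3, 37.2% to 70.2% for Cxcl1, 57.8% to 68.9% for Cxcl5 and 95.3% to 98.9% for Csf1. The order of Csf3 below both chemokines and Csf1 above them held under each of these scalings. Cxcl1 and Cxcl5 changed places with each other, and no replicate gives these shares an error.

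**Figure D2:**
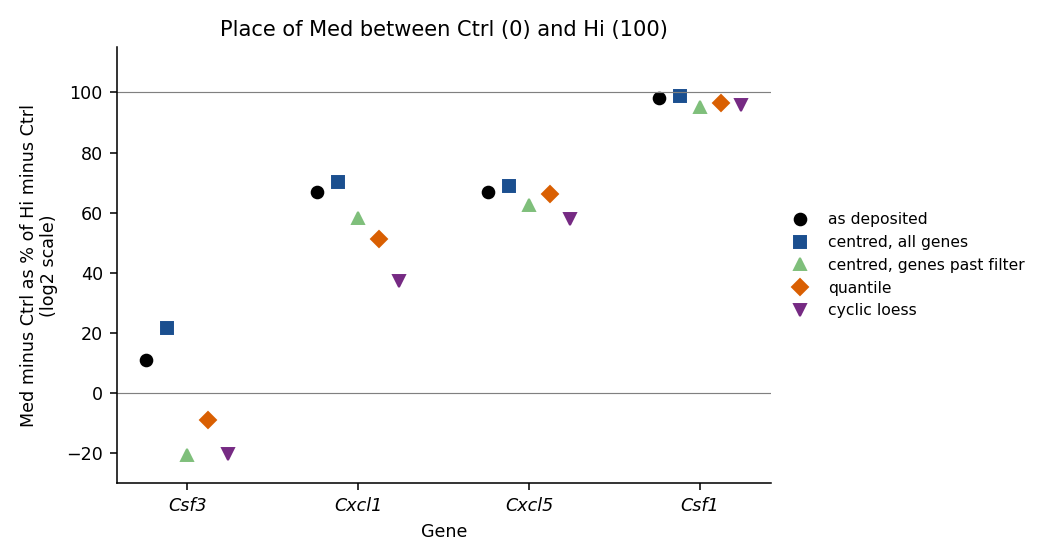
Difference of Med from Ctrl as a percentage of the difference of Hi from Ctrl (vertical axis, log2 scale, 0 at Ctrl and 100 at Hi) for the 4 members above background (horizontal axis). Symbols stand for the deposited values and 4 other scalings. Csf3 lies between -20.6% and 21.6% and Csf1 between 95.3% and 98.9%.

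Between Hi and Med, the comparison in which neither column is Ctrl, 3 of the 7 members were at least 2-fold higher and 0 were lower. Of all genes, 0.406% were past 2-fold upward in Hi and 0.512% downward. The members' median difference was 0.07, and that of all genes 0.00. Since the list was chosen with these differences known, the count is not set against the background. Csf3, Cxcl5 and Cxcl1 stayed past 2-fold under every scaling tried, with ranges of 1.80 to 2.06, 1.88 to 1.96 and 1.04 to 1.12. Csf1, Csf2, Cxcl2 and Cxcl3 differed by no more than 0.13 between Hi and Med under any of them. Quantile and cyclic loess normalization drew on every column, so under those scalings the values of Hi and Med also depend on Ctrl.

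Set against Ctrl, Hi had 4 of the 7 members at least 2-fold higher and 0 lower, and their median difference was 2.25. The shares of all genes were 17.5% higher and 15.4% lower, and their median was -0.19. For Med, 3 members lay above Ctrl and 0 below, at a median of 0.25, where 18.3% of all genes were higher, 16.3% were lower and the median was -0.20. Both comparisons share the Ctrl column, so their likeness says nothing further. Of the genes 2-fold apart between Hi and Ctrl, 53.1% were higher as deposited, 77.7% with columns centred on all genes, 67.0% with cyclic loess and 22.4% with columns centred on the genes past the filter. In Med against Ctrl the same shares were 52.9%, 76.8%, 66.1% and 21.7%. Centring on all genes adds 0.28 to each difference of Hi from Ctrl and 0.30 to each of Med, and centring on the genes past the filter adds -0.54 and -0.60. Cxcl5, Cxcl1, Csf1 and Csf3 were over 2-fold higher in Hi than in Ctrl under each scaling, with lowest values of 4.58, 1.75, 1.96 and 1.65.

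**Figure D3:**
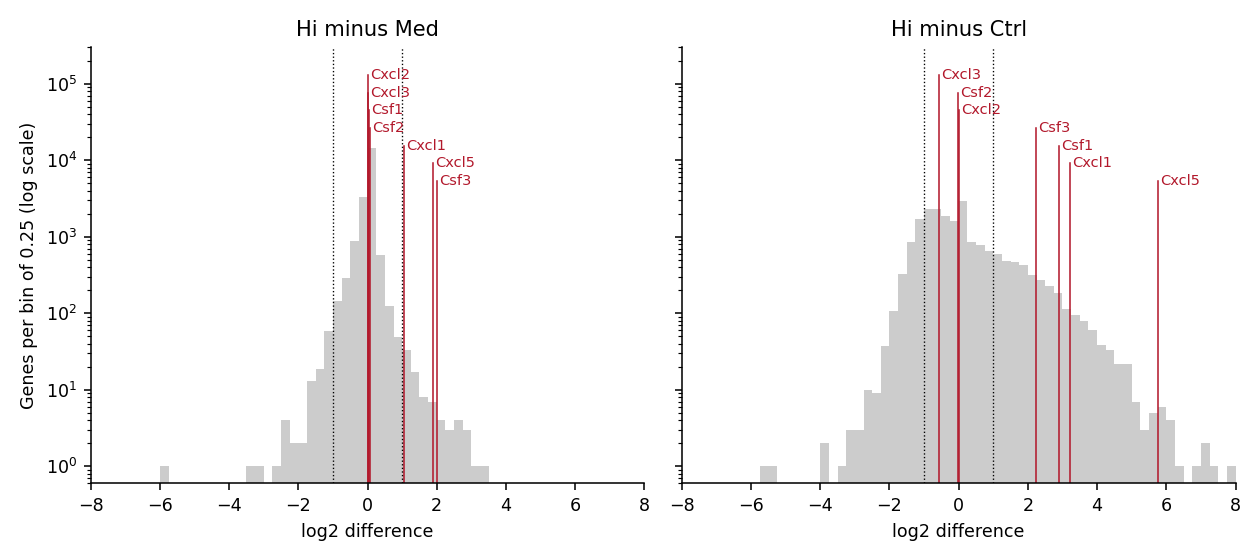
Number of genes (vertical axis, log scale) per bin of 0.25 in log2 difference (horizontal axis) for Hi minus Med on the left and Hi minus Ctrl on the right, with members drawn as red lines whose height carries no value and 2-fold marked by dotted lines. Csf3 (2.0), Cxcl5 (1.90) and Cxcl1 (1.06) lie past 2-fold on the left, and the Hi minus Ctrl distribution is far wider than the Hi minus Med one.

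All 4 chemokine members lie in 1 stretch of mouse chromosome 5, which held both genes higher in Med and Hi than in Ctrl and genes at background. In the order of the RefSeq table the measured genes run Rassf6, Cxcl5, Ppbp, Pf4, Cxcl3, Cxcl15, Cxcl1, Cxcl2 and Mthfd2l. Ppbp, which encodes a further ELR chemokine of platelets, followed its neighbour Cxcl5 in direction with 6.62 in Ctrl cells, 7.52 in Med cells and 8.06 in Hi cells. Rassf6, an adaptor of the RASSF family on the other side of Cxcl5, stood at 6.00 in Ctrl cells, 8.31 in Med cells and 8.88 in Hi cells.

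Further along, Pf4 (platelet factor 4) was at 5.60 in Ctrl cells, 5.17 in Med cells and 5.17 in Hi cells, and Cxcl15 (lungkine, a chemokine of lung epithelium) at 4.72, 4.06 and 4.09 in the same order, so both lay within the receptor range beside Cxcl3. Cxcl1 and Cxcl2 are direct neighbours among the measured genes, and Cxcl1 alone of them differed between columns. Mthfd2l, a mitochondrial folate enzyme next to Cxcl2, was at 7.66 in Ctrl cells, 9.98 in Med cells and 9.94 in Hi cells. It was thus higher than Ctrl in both columns, as Csf1 was, with no further step between Med and Hi. Beside Csf3 on chromosome 11, the proteasome subunit gene Psmd3 was at 9.26 in Ctrl and 9.94 in both Med and Hi, and the Mediator subunit gene Med24 at 8.49 in Ctrl cells, 9.25 in Med cells and 9.27 in Hi cells. Beside Csf1 on chromosome 3, Ahcyl1 was 0.49 higher and Eps8l3 0.84 lower in Hi than in Ctrl (log2 differences of 0.49 and -0.84). Csf2 on chromosome 11 lies between P4ha2, equal in Hi and Ctrl at 7.82, and Il3, at 3.59 in Hi and 4.70 in Ctrl.

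**Figure D4:**
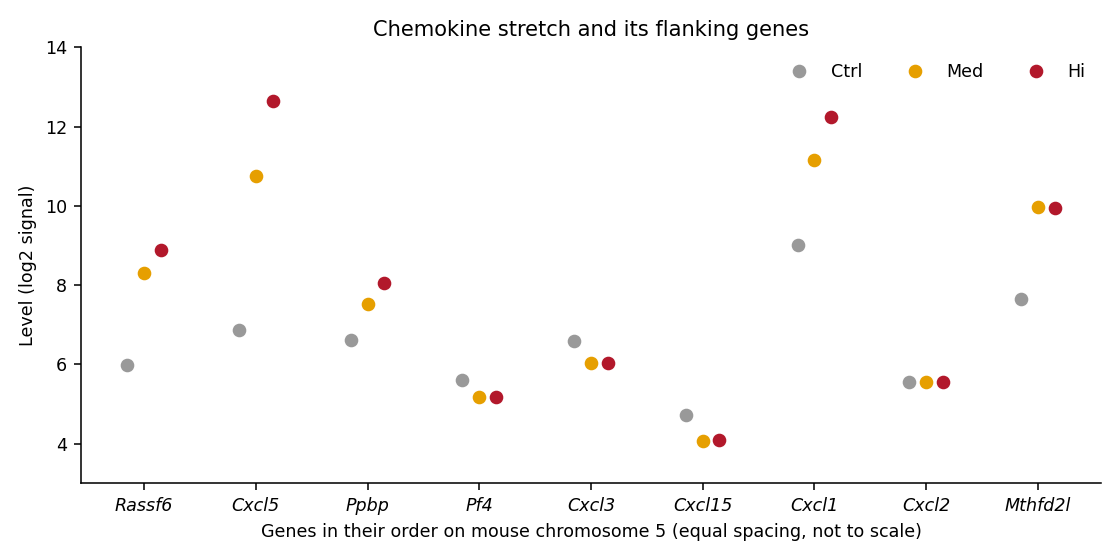
Level (log2 signal, vertical axis) in Ctrl, Med and Hi of the measured genes of the chemokine stretch, in their order on mouse chromosome 5 with equal spacing (horizontal axis). Cxcl5 and Cxcl1 reach 12.65 and 12.23 in Hi, while Pf4, Cxcl3, Cxcl15 and Cxcl2 between and beside them stay at or under 6.60 in every column.

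Other CXC chemokines did not follow Cxcl1 and Cxcl5 as a family. Of 11 measured, 0 were 2-fold apart between Hi and Med, and 1 was above Ctrl and 4 below it in Hi, at a median of -0.63. The higher one was Ppbp, given above (1.44 above Ctrl in Hi). Cxcl13, which attracts B cells, was at 6.51 in Ctrl and 5.05 in both Med and Hi. Cxcl14, a chemokine of epithelia, was at 7.27 in Ctrl cells, 5.70 in Med cells and 5.88 in Hi cells, and Cxcl17, of mucosal tissue, at 7.78, 6.65 and 6.67 in that order. These lower values lay within or near the receptor range. Of all genes, 15.4% were 2-fold lower and 17.5% higher in Hi than in Ctrl. With cyclic loess scaling 0 of the 11 were 2-fold lower, with columns centred on all genes 2 and with quantile normalization 3. With columns centred on the genes past the filter 6 were lower and 0 higher.

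Of the 8 receptors listed beside the members, 5 lay within the receptor range in every column. Of all 8, 0 differed 2-fold between Hi and Med, and in Hi 0 lay above Ctrl and 2 below it by that margin. Cxcr2, the receptor of Cxcl1, Cxcl2, Cxcl3 and Cxcl5, was at 4.42 in Ctrl and 4.26 in Med and Hi. Cxcr1 was at 7.47 in Ctrl and 6.33 in both Med and Hi, and Ackr1, a scavenging receptor of red cells and endothelium, at 5.23 in Ctrl cells, 4.94 in Med cells and 4.91 in Hi cells. Csf1r, the receptor of Csf1, was at 6.65 in Ctrl and 5.72 in Med and Hi, within the receptor range. Csf3r, the receptor of Csf3, was at 6.20 in Ctrl and 5.62 in Med and Hi.

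The GM-CSF receptor subunit Csf2ra was the receptor furthest above the receptor range, at 8.79 in Ctrl cells, 7.35 in Med cells and 7.51 in Hi cells. Csf2rb and Csf2rb2 were lower. Csf2rb was at 6.75 in Ctrl cells, 6.25 in Med cells and 6.44 in Hi cells, and Csf2rb2 at 6.22, 5.47 and 5.77 in the same order. With columns centred on all genes, 0 of the 8 were 2-fold lower in Hi than in Ctrl, with cyclic loess 1 was, and with columns centred on the genes past the filter 4 were. The ligands above background lay above the receptor range in every column, Ctrl included, with Cxcl5 at its edge in Ctrl. Of the receptors, Cxcr2, Ackr1, Csf1r, Csf3r and Csf2rb2 lay within it in every column. Cxcr1 and Csf2ra lay above it in every column, and Csf2rb did so in Med and Hi.

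Among cytokines that induce or accompany these factors, those 2-fold apart between Hi and Med were lower in Hi. Of the 13, 4 lay within the receptor range in every column. Between those columns, 2 were at least 2-fold lower than Med in Hi and 0 higher. Il33, an alarmin of the IL-1 family, was at 6.40 in Ctrl cells, 8.88 in Med cells and 5.69 in Hi cells, a difference of -3.19 between Hi and Med. Il18, another IL-1 family member, was at 4.42 in Ctrl cells, 7.01 in Med cells and 5.35 in Hi cells (-1.65 between Hi and Med). Both were thus highest in Med, unlike any member. Their Hi and Ctrl values lay within the receptor range, so the sizes of these differences are not well fixed. Neither gene passed the expression filter. Kitl (stem cell factor) was at 6.78 in Ctrl cells, 9.58 in Med cells and 9.30 in Hi cells, and Il34, the second ligand of Csf1r, at 7.63, 9.43 and 8.64 in that order. Against Ctrl, Hi was 2-fold higher for 2 of the 13 and lower for 1, and the median was -0.04.

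The receptors and adaptors that carry IL-1, IL-17, TNF and Toll signals were measured for 16 of 18 genes. Of these, 0 were 2-fold apart between Hi and Med. In Hi, 11 exceeded Ctrl 2-fold and 0 fell below it (median 1.41), and in Med 10 were higher. Of all genes, 17.5% were 2-fold higher than Ctrl in Hi and 18.3% in Med. Of the genes past the filter, which all 16 passed, 33.5% were higher in Hi and 34.9% in Med. The count in Hi was 8 with quantile normalization, with cyclic loess and with columns centred on the genes past the filter. In Med it was 6 with columns centred on the genes past the filter. Tlr4, the receptor of lipopolysaccharide, was at 5.89 in Ctrl cells, 8.82 in Med cells and 9.32 in Hi cells. The adaptor Tab2 was at 7.96 in Ctrl cells, 10.26 in Med cells and 10.13 in Hi cells. The TNF receptor Tnfrsf1a was at 7.88, 10.24 and 10.25 in the same order, and the RNA sensor Tlr3 at 6.13, 8.55 and 8.46.

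Of the NF-kB and C/EBP factors themselves and their kinases, 10 of 12 were measured, and 0 were 2-fold apart between Hi and Med or between Hi and Ctrl, with a median of 0.36 for Hi against Ctrl. The kinase gene Ikbkb was 2-fold higher in Med than in Ctrl (1.05). The kinase scaffold Ikbkg was at 7.31 in Ctrl and 8.12 in Med and Hi. Nfkbiz, a nuclear cofactor needed for some of these chemokines and for Lcn2 in mouse cells, was at 8.47 in Ctrl cells, 8.85 in Med cells and 9.21 in Hi cells. With columns centred on all genes 2 of the 10 were 2-fold higher in Hi than in Ctrl, while quantile, cyclic loess and centring on the genes past the filter each made 1 of them 2-fold lower.

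Feedback genes of NF-kB were split. Of 8, 4 were 2-fold higher and 0 lower in both Hi and Med than in Ctrl, and 0 were 2-fold apart between Hi and Med. Of the genes past the filter, which all 8 passed, 33.5% were 2-fold higher than Ctrl in Hi and 34.9% in Med. With quantile normalization, 3 of the 8 were higher in Hi and 3 in Med. With cyclic loess, 3 of the 8 were higher in Hi and 2 in Med. Nfkbia, which encodes the inhibitor IkB-alpha, was graded across the columns like Cxcl1, at 9.26 in Ctrl cells, 11.52 in Med cells and 12.07 in Hi cells, with Hi 0.55 above Med. Tnfaip2 was at 7.98 in Ctrl and 11.28 in Med and Hi. The inhibitor Nfkbib was at 8.26 in Ctrl and 9.83 in both Med and Hi, and the deubiquitinase Cyld at 6.58 in Ctrl and 8.40 in both Med and Hi.

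Proteins that bind AU-rich or stem-loop elements in such mRNAs were measured for all 11 genes listed, of which 0 were 2-fold apart between Hi and Med. Compared with Ctrl, 4 were higher in Hi and 1 was lower (median 0.85). Of all genes, 17.5% were higher and 15.4% lower. Of the genes past the filter, which 10 of the 11 passed, 33.5% were higher and 8.4% lower, so the count higher was near that share. It was 1 with quantile normalization, with cyclic loess and with columns centred on the genes past the filter. Tia1, a translational silencer, was at 7.35 in Ctrl cells, 9.30 in Med cells and 9.29 in Hi cells. The stabilizing factor Elavl1 was at 8.64 in Ctrl cells, 10.00 in Med cells and 10.02 in Hi cells, and Rc3h2 (Roquin-2) at 8.66, 10.16 and 10.12 in that order. Hnrnpd (AUF1) was at 12.37 in Ctrl and 10.89 in Med and Hi.

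**Figure D5:**
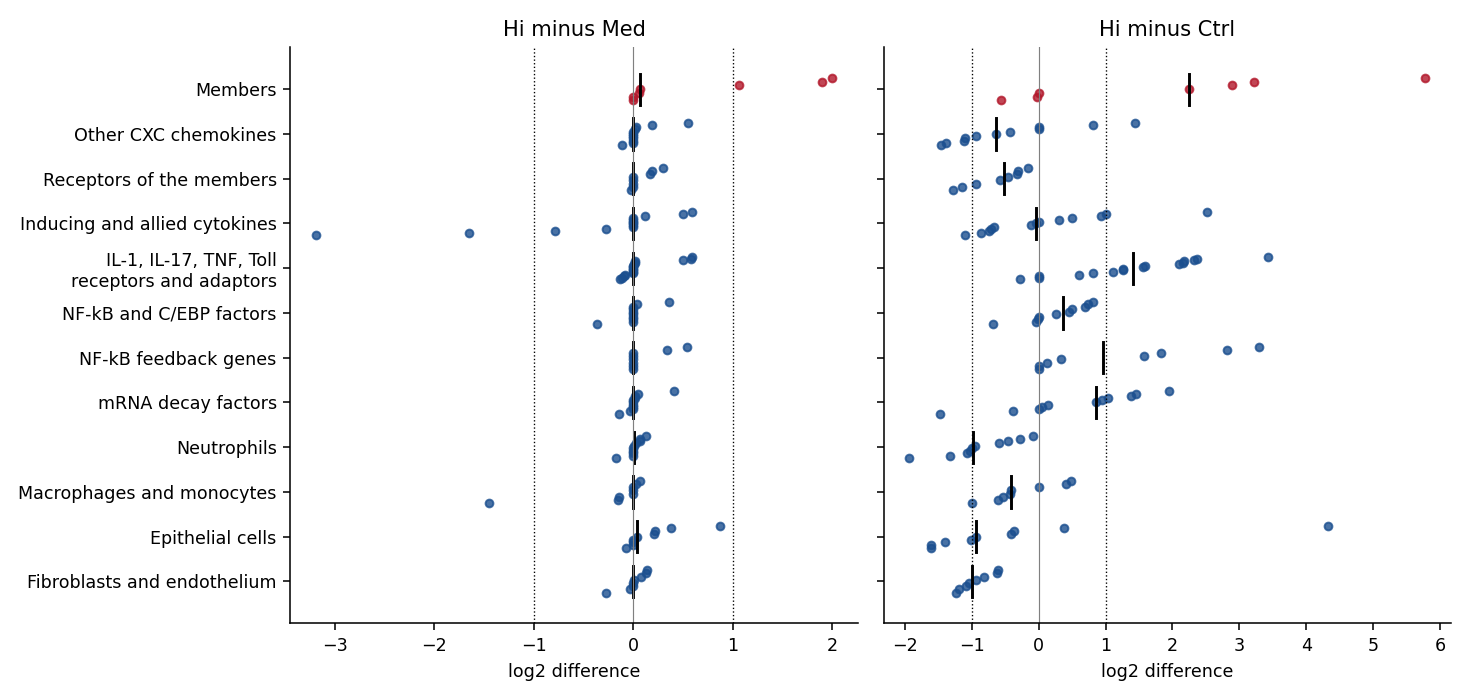
log2 difference (horizontal axis) of each gene of each list (rows, 1 point per gene, black bar at the list's median) for Hi minus Med on the left and Hi minus Ctrl on the right, with 2-fold marked by dotted lines. On the left, points past 2-fold are the members Csf3, Cxcl5 and Cxcl1 above 0, and Il33, Il18 and the macrophage marker Cd68 below 0.

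Markers of the leukocytes that make or answer these factors were checked beside them. Of 10 neutrophil markers, 6 lay within the receptor range in every column, S100a8 and Ly6g among them, and 0 were 2-fold apart between Hi and Med. Their summed linear signal was 892 in Ctrl cells, 453 in Med cells and 457 in Hi cells, and the part of such cells in the members' values was not tested. In Hi, 4 of the 10 were 2-fold lower than Ctrl and 0 higher, where 15.4% of all genes were lower. The count lower was 2 with columns centred on all genes and with quantile normalization, and 1 with cyclic loess. Centring on the genes past the filter went the other way. It adds -0.54 to each difference and also put S100a9, Ngp and Retnlg past 2-fold lower. The olfactory and vomeronasal receptor genes also had a median of -0.38 in Hi against Ctrl, with 77 of 1194 2-fold lower and 0 higher. Mpo, the peroxidase of neutrophil granules, was at 7.32 in Ctrl and 5.39 in Med and Hi, Mmp8 at 5.72, 4.40 and 4.40, Elane at 7.08, 6.18 and 6.01, and Camp at 7.07, 5.92 and 6.05, each in the order Ctrl, Med and Hi.

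Of 9 macrophage and monocyte markers 8 were measured, and 4 of them lay within the receptor range in every column. Ptprc, carried by all leukocytes, was at 6.23 in Ctrl and 5.63 in Med and Hi. Cd68, a lysosomal protein not confined to macrophages, was 2-fold lower in Hi (7.67) than in Med (9.12) and stood at 7.18 in Ctrl. Fcgr1 was at 7.06 in Ctrl cells, 6.21 in Med cells and 6.07 in Hi cells. The summed signal of this list was 694 in Ctrl cells, 1019 in Med cells and 662 in Hi cells. Cd68 alone of the list was 2-fold higher in Med than in Ctrl. Of the 8 genes, 2 were above Ctrl in Med, 5 below and 1 identical, at a median of -0.40.

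The labelled origin of the cells was set against 9 epithelial markers, of which 3 (Epcam, Krt20 and Vil1) lay within the receptor range in every column. Krt18, a keratin of simple epithelia, was graded like Cxcl5, at 7.97 in Ctrl cells, 11.41 in Med cells and 12.28 in Hi cells. Its partner Krt8 was at 8.92 in Ctrl cells, 7.28 in Med cells and 7.32 in Hi cells, and the tight junction genes Cldn3 and Cldn7 were lower than Ctrl in both other columns (log2 differences of -1.62 and -1.40 for Cldn3 and of -1.82 and -1.61 for Cldn7 in Med and Hi). Of 8 fibroblast and endothelial markers 0 were 2-fold apart between Hi and Med. By that margin 4 were lower in Hi than in Ctrl, namely Col1a1 (-1.19), Col1a2 (-1.23), Pecam1 (-1.04) and Kdr (-1.08). Kdr lay within the receptor range in every column, and 15.4% of all genes were lower. The count of markers lower was 0 with columns centred on all genes and 2 with quantile normalization and with cyclic loess. It was 8 with columns centred on the genes past the filter.

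Genes with the pattern most like each member were found by the distance between log2 profiles over the 3 columns, each centred on its own mean, among 9569 named genes past the filter. With 3 columns such likeness is a weak description. Csf3 was nearest to Cdc42ep3 (distance 0.07), a Cdc42 effector at 6.48 in Ctrl cells, 6.82 in Med cells and 8.78 in Hi cells, then to Txnip (0.12) and Foxc1 (0.14). Cxcl1 was nearest to the integrin gene Itgb5 (0.06), at 8.12 in Ctrl cells, 10.27 in Med cells and 11.41 in Hi cells, then to Gsta4 (0.10) and Insig1 (0.13). For Cxcl5 the nearest genes lay farther off, with Emb at 0.42, Wfdc2 at 0.53 and Snord118 at 0.76.

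Csf1 had close neighbours in Kars (0.04), Skp1 (0.04) and Ap4m1 (0.05), each of which held the same value in Med and Hi. Among the members at background, Cxcl3 matched Coa4, Zdhhc24 and Fam160a2 to within 0.001, and Csf2 lay within 0.02 of Wnt10a, Zfp93 and Esrp2. Cxcl2, constant across columns, tied with 1025 genes, so none is named.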

How the data were processed

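Amplified, biotin-labelled cDNA from 100 ng of RNA per sample was hybridized to Affymetrix arrays, per the labels' protocols. The deposited values, normalized by the authors, were taken as log2 from their range of 2.13 to 14.8. Expression Console and GCRMA appear, without version, per the submitters' processing notes. Scanner files and detection calls were not used here, and the number of arrays limits the precision.

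Of 35556 probe sets, 21789 had a single gene, 1621 had several genes and 12146 had no gene listed. Symbols were updated by gene number to RefSeq's GRCm38.p6 table (99.6% of single-gene probe sets matched), and probe sets of a gene were averaged. Groups came from the sample titles. Columns were compared by differences of log2 values with no test, calling 2-fold (a difference of 1). Counting and quantile steps were tested on simulated data.

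Members and gene lists were chosen with earlier results of these data known. Named genes were all members and their receptors, genes of each list 2-fold apart between Hi and Med, up to 4 per list with the largest difference of Hi from Ctrl (up to 2 where none was 2-fold apart), the 3 most alike genes per member, and direct neighbours among measured genes. The remaining genes of the chemokine stretch, and marker genes named as lying within the receptor range, were added after their values were seen. Alternatives were centring, quantile and cyclic loess normalization (limma 3.58.1, R 4.3.3), the brightest probe set per gene, a 1.5-fold call and the expression filter. Python 3.11.15, pandas 2.3.3 and Biopython 1.88 were used.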

Additional observations from a re-analysis of the deposited data

How the results depend on the processing

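No paired analysis was possible because each group has 1 column and the labels give no replicate numbers, and for the same reason no replicate could be left out. The count of members 2-fold higher stayed at 3 (Hi against Med), 4 (Hi against Ctrl) and 3 or, under cyclic loess, 2 (Med against Ctrl), and the count lower stayed at 0, except that centring on the genes past the filter, an alternative chosen after seeing the data, made 1 member (Cxcl3) lower than Ctrl in Hi and in Med. Of 126 recomputed member differences, 123 kept their side of the call and none past 2-fold reversed. Part of this was fixed in advance. The brightest probe set could change no member, since each has 1 probe set. The 1.5-fold call reused the deposited differences, so it could weaken or reverse none of those past 2-fold. Medians of the members moved as follows, in the order Hi against Med, Hi against Ctrl and Med against Ctrl. They were 0.049, 2.53 and 0.55 with columns centred on all genes, 0.083, 1.65 and 0.27 with quantile normalization, 0.079, 1.68 and 0.56 with cyclic loess, and 0.13, 1.71 and -0.35 with columns centred on the genes past the filter. Over the 4 members past the filter they were 1.48, 3.06 and 2.50, values that the filter itself raises. With the 1.5-fold call, Hi exceeded Med in 202 genes and fell below it in 406, against 81 and 102 at 2-fold, and lower genes numbered 6951 in Hi and 7079 in Med against Ctrl, where 2-fold gave 3077 and 3256. In Hi against Ctrl, centring on all genes left 1215 lower, cyclic loess 1274, the filter 837, and centring on the genes past the filter made 8007 lower and 2305 higher (3485 as deposited). In Med against Ctrl the corresponding numbers were 1345, 1392, 867, 8537 and 2370, the last against 3655. Quantile normalization left 61 lower in Hi than in Med. The causes were not tested. Of 456 recomputed list counts, 86 moved, by over 1.5 times or by any change to or from 0.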
